A study of Mus musculus with 8 samples.

Results

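Transcripts of 40 mouse genes that build the acrosome and the tail of the sperm were followed in RNA sequencing of testis. The members were listed by symbol for what their proteins do and matched through their Ensembl identifiers, and all 40 were found among the 55421 gene identifiers of the count files. They comprise 12 acrosome genes, 25 tail genes and 3 genes of sperm glycolysis, which are described apart. The rule for membership used no measured value, but the members were chosen with earlier results of these data known.

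The 8 libraries came from testis of male mice labelled wild type, 2 in each of 4 groups. CTRL mice received phosphate-buffered saline. LPS mice received lipopolysaccharide, a bacterial cell wall component that sets off inflammation, into the abdominal cavity. LPS+DHEA mice were given DHEA (dehydroepiandrosterone, a steroid) 6 h after LPS, and LPS+DHEA+Nb mice were given DHEA together with Nb23-bi at that time. The sources used here do not state what Nb23-bi is, the doses, the strain and age of the mice or when the tissue was collected. No group received LPS with a second injection of vehicle, so an effect of DHEA cannot be told apart from that of being injected again. Nothing in the labels says whether a group's 2 libraries are separate animals, so the p-values measure only the spread between these libraries, which may be technical. The protocol speaks of islets at the step of RNA isolation, while the labelled tissue is testis. All 12 acrosome genes and all 25 tail genes were detected in every library, with at least 67.8 CPM, the counts of a gene scaled per 10 to the power of 6 counts of its library.

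The acrosome is a vesicle derived from the Golgi that caps the sperm nucleus and holds the enzymes and binding proteins needed to reach and fuse with the egg. The tail is built around an axoneme of microtubules moved by dynein motors, and is wrapped in outer dense fibres, a mitochondrial sheath in the midpiece and a fibrous sheath in the principal piece. Much of the energy for swimming comes from glycolytic enzymes made only in germ cells, some of which are bound to the fibrous sheath. Most of these genes are transcribed in late spermatocytes and round spermatids, and many of the messages are stored before they are translated. In bulk tissue, fewer germ cells and less RNA per cell cannot be told apart.

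The sequences that lie just upstream of the transcription start are shown for 5 members. Spata6 is the only member called, which here means an adjusted p under 0.05 by edgeR's quasi-likelihood test. Spem1 had the lowest p among tail genes between LPS and CTRL. Smcp and Ldhc were the most abundant per length, and Spata16 was the most abundant acrosome gene per length. Each line gives the 150 bases before the RefSeq start, 5′ to 3′ along the gene's strand, on GRCm38.p6, as taken from RefSeq. Capitals mark matches to 4 motifs searched on both strands: TGACG, the core of the site bound by the CREM and CREB factors of spermatids, GTTGCC, a part of the site of the RFX factors, AACNGTT, a site of the MYB family, and TATAAA, the TATA box. On the opposite strand TGACG reads CGTCA and GTTGCC reads GGCAAC.
Spata6 (chr4:111719860-111720009, plus strand): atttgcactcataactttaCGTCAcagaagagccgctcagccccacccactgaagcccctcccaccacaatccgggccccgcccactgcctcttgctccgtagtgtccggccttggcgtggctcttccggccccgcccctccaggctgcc
Spem1 (chr11:69822166-69822315, minus strand): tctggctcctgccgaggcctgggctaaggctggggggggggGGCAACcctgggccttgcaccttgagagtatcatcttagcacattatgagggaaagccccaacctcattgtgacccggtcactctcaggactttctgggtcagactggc
Smcp (chr3:92589074-92589223, minus strand): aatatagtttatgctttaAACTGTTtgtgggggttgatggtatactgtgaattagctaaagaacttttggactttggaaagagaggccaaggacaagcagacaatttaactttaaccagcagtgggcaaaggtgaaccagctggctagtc
Ldhc (chr7:46861113-46861262, plus strand): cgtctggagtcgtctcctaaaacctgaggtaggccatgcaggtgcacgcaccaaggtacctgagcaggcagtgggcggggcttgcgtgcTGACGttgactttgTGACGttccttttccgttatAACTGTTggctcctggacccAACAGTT
Spata16 (chr3:26637481-26637630, plus strand): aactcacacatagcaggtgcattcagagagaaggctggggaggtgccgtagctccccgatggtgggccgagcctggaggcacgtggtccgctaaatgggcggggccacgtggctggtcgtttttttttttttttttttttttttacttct
Spata6 held 1 TGACG core on the opposite strand, Spem1 held 1 GTTGCC on the opposite strand and Smcp held 1 AACNGTT. Ldhc held 4 matches in its 150 bases, a pair of TGACG cores followed by a pair of AACNGTT sites, and Spata16 held none of the 4 motifs. In the GENCODE M21 annotation the Ldhc gene begins 60 bases farther upstream. By this annotation the first TGACG of Ldhc straddles the start of the gene, and the second TGACG and both AACNGTT sites lie inside it. The starts in RefSeq and GENCODE lay 26 bases apart for Spata6, 15 for Spem1, 76 for Smcp and 11 for Spata16, and the bases just after the RefSeq start of Smcp were not found in its GENCODE transcripts.

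RefSeq listed a promoter for 37 of the 40 members, not for Acr, Oaz3 and Odf1. In the 250 bases before the start, TGACG was present in 10 of the 37 (27.03%), against 17.77% of all 32851 listed mouse promoters. Of these 10, 5 were among the 11 acrosome genes with an entry (Spaca1, Spaca3, Zpbp2, Izumo1 and Acrbp), 4 among the 23 tail genes (Odf2, Fsip2, Tekt1 and Spata6) and 1 among the 3 glycolysis genes (Ldhc). GTTGCC was present in 6 members (16.22%, against 10.43% of all promoters), 5 of which were tail genes. AACNGTT was present in 4 members (10.81%, against 3.8%) and TATAAA in 1, Spaca7 (2.7%, against 12.37%). For 5 of the 37 (Qrich2, Tekt4, Dnah8, Dnah17 and Cfap43) the RefSeq start lay more than 1000 bases from the start of the GENCODE gene. These matches describe the letters of the windows and were not tested.

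The members span 16 chromosomes, with 39 genes on autosomes and Akap4 on X. Spaca4 and Pgk2 have a single exon, and Pgk2 is a retrogene copied from the X-linked Pgk1. In the annotation, 13 members share exon bases with another gene, 3 of them on the same strand (Izumo1, Acrbp and Cfap43) and 11 on the opposite strand. The overlap was the longest for Oaz3, which shares 52.13% of its exon bases with Tdrkh on the opposite strand. The sources used here do not state whether counting used strand, so reads in such stretches may have been assigned to either gene.

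Libraries held 61291062 to 64521795 counts, of which the 40 members held 2.68% to 2.78%. Of all genes, 26414 passed the filter on low counts and were tested, and all 40 members were among them, so that no member was lost to it. Summed over the 40 members, the level lay between 26490.1 and 28116 CPM, a ratio of 1.06 between the highest library (CTRL 1) and the lowest (LPS 2).

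Per length, the members differed widely in abundance, and tail and glycolysis genes held the top places. Levels between genes are given here as the mean of the 8 libraries in CPM per kilobase of merged exons. Merged exons take in every annotated exon and can be longer than the transcripts made in testis, so the order depends on the annotation. Odf2, the highest member in CPM (3606), has 9919 bp of merged exons and ranked 10 per length (364). Smcp, a cysteine-rich protein of the sperm mitochondrial sheath, stood first at 2550.0, followed by Ldhc (1733), Odf1 (1433), Gapdhs (1176), Akap4 (624) and Spem1 (571). The acrosome genes lay lower, from Spata16 (154) and Zpbp2 (150.3) down to Spam1 (36.1) and Izumo1 (32.2). The lowest levels were those of long genes of the axoneme and fibrous sheath, Dnah1 (14.5), Fsip2 (13.2) and Cfap44 (11.7). Neighbours in this order often did not differ beyond their spread over libraries. Tekt1 (192), Spata19 (191) and Tekt2 (189) overlapped in range, as did Spata16, Tekt4 (151) and Zpbp2, while the ranges of Smcp, Ldhc, Odf1, Gapdhs and Akap4 did not overlap each other.

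**Figure D1:**
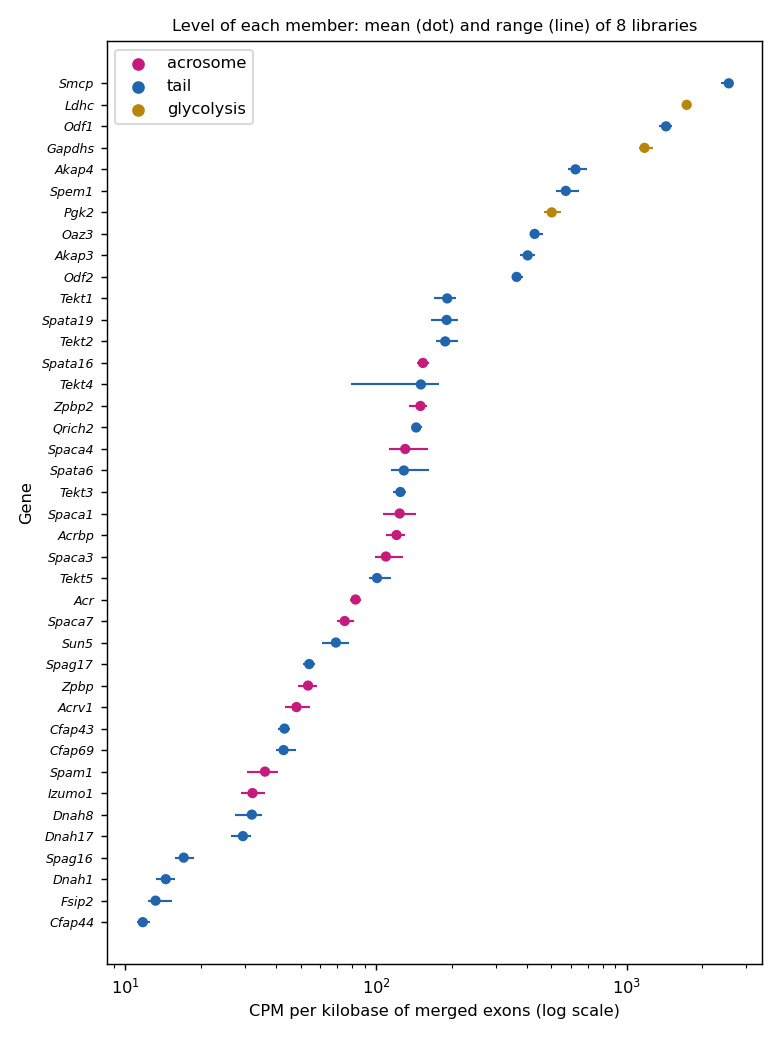
Level of each of the 40 genes in CPM per kilobase of merged exons on a log axis. Dots are means and lines are ranges over the 8 libraries, in pink for acrosome, blue for tail and gold for glycolysis genes, and Smcp stands highest at 2550.0 and Cfap44 lowest at 11.7.

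Among the acrosome genes none was called in any of the 6 comparisons between groups or in the 4-group test. Their summed level was 2164 and 2088 CPM (CTRL), 2271 and 2029 (LPS), 2078 and 2182 (LPS+DHEA) and 2278 and 2112 (LPS+DHEA+Nb). The group means were 101%, 100.2% and 103% of CTRL in LPS, LPS+DHEA and LPS+DHEA+Nb. The 2 LPS libraries lay farther apart than any 2 group means, and the libraries of all groups overlapped in this sum. Of the 12 genes, 11 were above their own 8-library mean in LPS 1 and 0 in LPS 2, and 10 were above it in LPS+DHEA+Nb 1 and 4 in LPS+DHEA+Nb 2. The libraries of 1 group thus parted over most acrosome genes, and these deviations are not independent between genes of the same library.

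Spata16, a protein of the Golgi and of the vesicles that form the acrosome, was measured at 342 and 338 CPM (CTRL), 313 and 308 (LPS), 313 and 331 (LPS+DHEA) and 314 and 339 (LPS+DHEA+Nb). Both LPS libraries were below both CTRL libraries, and the LPS+DHEA+Nb libraries overlapped with CTRL. The fitted log2 fold change of LPS over CTRL was -0.13 (SE 0.063, 95% interval -0.27 to 0.0071, adjusted p = 0.727 by edgeR's quasi-likelihood test), which did not pass the threshold of 0.05. Izumo1, the sperm protein that binds the egg before fusion, was the least abundant of the acrosome genes per length and was measured at 96.0 and 86.9 CPM (CTRL), 104 and 87.9 (LPS), 100.03 and 94.0 (LPS+DHEA) and 108 and 93.2 (LPS+DHEA+Nb). Its groups overlapped in all comparisons.

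Spaca4, a membrane protein of the acrosome that takes part in binding to the egg coat, was measured at 88.2 and 83.2 CPM (CTRL), 113 and 90.8 (LPS), 97.3 and 87.2 (LPS+DHEA) and 98.9 and 79.9 (LPS+DHEA+Nb). LPS 1 stood above the other 7 libraries, and the fitted difference of LPS over CTRL was 0.25 on the log2 scale (SE 0.13, adjusted p = 0.753). The fitted difference of LPS+DHEA over LPS was -0.15 with both LPS libraries and 0.018 without LPS 1. Spaca3, a lysozyme-like acrosomal protein, was measured at 98.9 and 93.9 CPM (CTRL), 115 and 94.6 (LPS), 109 and 101 (LPS+DHEA) and 122 and 97.3 (LPS+DHEA+Nb), again with LPS 1 and LPS+DHEA+Nb 1 the highest libraries of all. Spaca7, an acrosomal protein released from sperm, was measured at 72.2 and 72.2 CPM (CTRL), 77.2 and 68.6 (LPS), 72.6 and 68.6 (LPS+DHEA) and 80.1 and 75.7 (LPS+DHEA+Nb). Both LPS+DHEA+Nb libraries of Spaca7 were above both LPS+DHEA libraries, with a log2 fold change of 0.14 (SE 0.084) that did not pass the test (adjusted p = 1).

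The other 7 acrosome genes varied by at most 1.35-fold between their highest and lowest library. They are the protease acrosin (Acr, 124 to 137 CPM) with its binding protein Acrbp (359 to 426), the matrix and membrane proteins Acrv1 (159 to 199) and Spaca1 (170.3 to 230.5), the zona-binding proteins Zpbp (207 to 248) and Zpbp2 (228 to 267), and the hyaluronidase Spam1 (67.8 to 90.4). Acr had the narrowest range of them, with a ratio of 1.11 between its highest and lowest library.

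**Figure D2:**
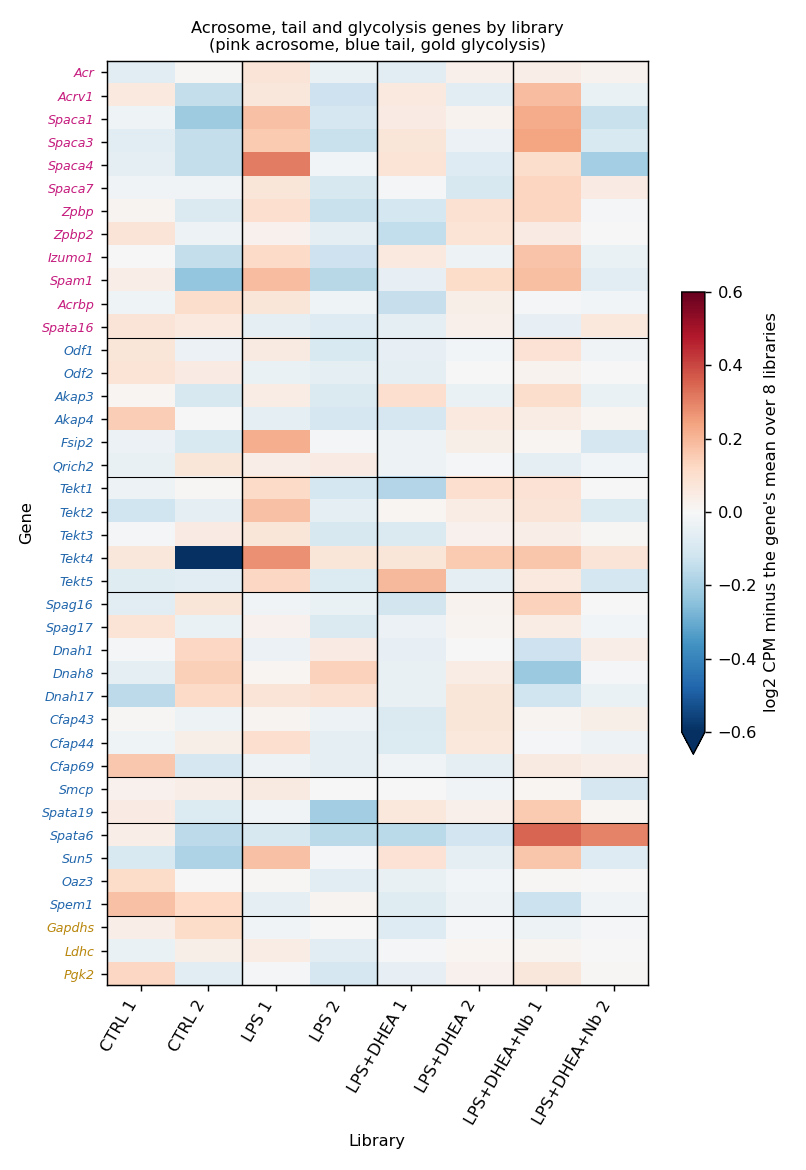
Each of the 40 genes (vertical axis) in each of the 8 libraries (horizontal axis) as log2 CPM minus the gene's mean over the libraries, red above and blue below. Spata6 is deepest red in the LPS+DHEA+Nb libraries (CTRL 1 lies just above its mean), Tekt4 is dark blue in CTRL 2 (beyond the colour scale), and most acrosome genes differ between the 2 libraries of LPS and of LPS+DHEA+Nb.

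Spata6, a tail gene, was the only member called, and it was higher in LPS+DHEA+Nb. Its protein takes part in building the connecting piece that joins the sperm head to the tail. The gene lies on chromosome 4 and was measured at 738 and 644 CPM (CTRL), 673 and 643 (LPS), 643 and 663 (LPS+DHEA) and 914 and 883 (LPS+DHEA+Nb). Both LPS+DHEA+Nb libraries stood above the other 6, while CTRL, LPS and LPS+DHEA overlapped. Its level rose by 0.45 on the log2 scale in LPS+DHEA+Nb over LPS (SE 0.070, 95% interval 0.30 to 0.60, adjusted p = 0.0351). Over LPS+DHEA it rose by 0.46 (SE 0.070, 95% interval 0.31 to 0.61, adjusted p = 0.0491). These comparisons share the LPS+DHEA+Nb libraries and are not independent. Against CTRL the difference was 0.38 (SE 0.070) and did not pass (adjusted p = 0.218), while DESeq2 gave an adjusted p of 0.00671 for it. In that comparison DESeq2 called 74 of all genes and edgeR 8. The 4-group test gave an adjusted p of 0.0422. LPS and LPS+DHEA differed from CTRL by -0.071 and -0.082, within the spread between libraries.

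By edgeR the Spata6 calls are close to the threshold. DESeq2 gave adjusted p of 6.36e-05 over LPS, 3.66e-05 over LPS+DHEA and 2.00e-06 in the 4-group test, and limma-voom gave 0.00585, 0.0129 and 0.00782. Over all genes DESeq2 called 207, 116 and 371 in these tests, where edgeR called 45, 23 and 63. In simulated data, unchanged genes made up more of edgeR's calls than the threshold allows for. Leaving out any 1 of the 6 libraries of the 3 LPS groups raised edgeR's adjusted p above 0.05 in both comparisons, to between 0.0605 and 0.225 against LPS and to between 0.0559 and 0.264 against LPS+DHEA, while the log2 fold change stayed between 0.42 and 0.48 and between 0.44 and 0.49. Leaving out either CTRL library kept both calls. In the 4-group test the call held without either CTRL library and without LPS 1 (adjusted p = 0.0422), and was lost without any 1 of the other 5 (0.0673 to 0.186). A fit on the LPS and LPS+DHEA+Nb libraries alone gave an adjusted p of 0.0601. The 4 genes placed next to Spata6 or inside it, chosen after the values were seen, were not called. Agbl4 had 3588 to 4238 counts, Slc5a9 had 55 to 85, and Gm12960, within the Spata6 locus on the opposite strand, had 912 to 1010 over the 8 libraries. Gm12961, also inside it on the opposite strand, had 0 to 19 counts, with 6 and 0 in LPS+DHEA+Nb. Among marker genes of other testis cells, the 8 Leydig cell markers summed to 749 and 724 CPM (LPS), 668 and 652 (LPS+DHEA) and 951 and 819.9 (LPS+DHEA+Nb). The 6 markers of peritubular myoid cells summed to 485 and 463, 453 and 473, and 412 and 382 CPM in the same groups, and 1 of them, Acta2, was called lower in LPS+DHEA+Nb in both comparisons. The 11 spermatocyte markers summed to 1880.2 and 1935, 1999.5 and 1999, and 2047 and 1985 CPM. The 11 Sertoli cell markers summed to 1115 and 1170, 1076 and 1160, and 1040.1 and 891 CPM, the 10 spermatogonia markers to 151 and 169, 162 and 165, and 137 and 147 CPM, and the 6 endothelial markers to 53.2 and 63.0, 54.1 and 51.1, and 47.3 and 49.8 CPM. In these 3 lists and in the myoid markers both LPS+DHEA+Nb libraries were below the 4 of LPS and LPS+DHEA, as they were in the 7 macrophage markers (46.7 and 47.7 against 47.9 to 51.04 CPM) and the 7 neutrophil markers (4.06 and 5.52 against 6.03 to 8.58 CPM). Of the markers in these lists, in the comparisons with LPS and LPS+DHEA, Acta2 and the macrophage gene Cd163 (against LPS only) were called. The neutrophil list alone had members at 0 in some libraries. The part of these cells in the Spata6 result was not tested.

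The other 3 genes of the neck and head-tail junction did not pass in any comparison. Spem1, which is needed to shed cytoplasm and straighten the head on the tail, was measured at 670.2 and 645 CPM (CTRL), 571 and 599.8 (LPS), 563 and 580.3 (LPS+DHEA) and 542 and 584 (LPS+DHEA+Nb). Both CTRL libraries were above all 6 others. The log2 fold changes over CTRL were -0.17 in LPS (SE 0.061, adjusted p = 0.559), -0.20 in LPS+DHEA (adjusted p = 0.545) and -0.22 in LPS+DHEA+Nb (adjusted p = 0.837), and these share the CTRL libraries. Spem2, a gene 2411 bp away on the same strand that was looked at after the values were seen, was measured at 666 and 659.7 CPM (CTRL), 596 and 627 (LPS), 597 and 615 (LPS+DHEA) and 546 and 592 (LPS+DHEA+Nb), also with CTRL above the 6 others and with no call. Nlgn2, 942 bp away on the same strand, was looked at in the same way. It had 409 and 447 counts (CTRL), 446 and 443 (LPS), 428 and 403 (LPS+DHEA) and 306 and 423 (LPS+DHEA+Nb). Its CTRL counts overlapped with those of the other groups, and it was not called.

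Sun5, a nuclear envelope protein that anchors the tail to the nucleus, was measured at 79.5 and 74.7 CPM (CTRL), 95.7 and 84.4 (LPS), 90.0 and 81.4 (LPS+DHEA) and 95.3 and 80.4 (LPS+DHEA+Nb). All 6 libraries of the LPS groups were above both CTRL libraries for Sun5, by 0.22 on the log2 scale in LPS (SE 0.10, adjusted p = 0.704). Oaz3, the germ cell antizyme also found at the tail, ranged from 1777 to 2002 CPM. Within these 4 genes the order over groups differed, with Spata6 highest in LPS+DHEA+Nb, Spem1 and Oaz3 highest in CTRL 1 and Sun5 lowest in CTRL 2.

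**Figure D3:**
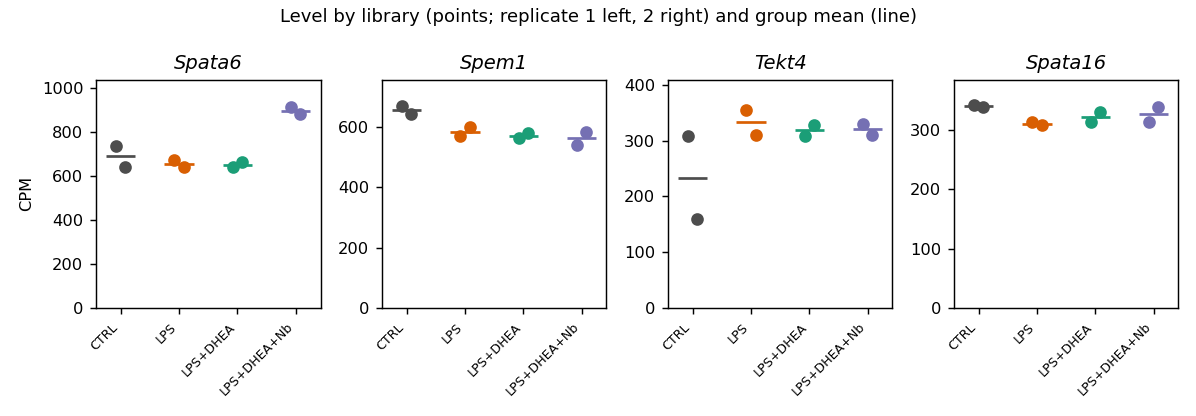
CPM of Spata6, Spem1, Tekt4 and Spata16 by group, with library 1 left and library 2 right as points and the group mean as a line, on axes that start at 0. Spata6 reaches 914 and 883 CPM in LPS+DHEA+Nb, and CTRL 2 alone is low for Tekt4 at 159 CPM.

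The 6 genes of the outer dense fibres and the fibrous sheath held the largest share of the tail transcripts, and none was called. Odf1, a main protein of the dense fibres, was measured at 1662 and 1545 CPM (CTRL), 1645 and 1486 (LPS), 1531 and 1562 (LPS+DHEA) and 1679 and 1558 (LPS+DHEA+Nb). Odf2, its partner in the fibres, was measured at 3814 and 3732 CPM (CTRL), 3503 and 3459.8 (LPS), 3459 and 3608 (LPS+DHEA) and 3659 and 3611 (LPS+DHEA+Nb), with both CTRL libraries above the other 6. The log2 fold change of LPS over CTRL for Odf2 was -0.12 (SE 0.047, adjusted p = 0.636). Akap4, the X-linked anchor of protein kinase A and the main protein of the fibrous sheath, was measured at 2090.4 and 1880.5 CPM (CTRL), 1817 and 1758 (LPS), 1761 and 1962 (LPS+DHEA) and 1943 and 1904 (LPS+DHEA+Nb). LPS lay below CTRL for Akap4 by -0.15 (SE 0.067, adjusted p = 0.690), and the CTRL and LPS+DHEA libraries overlapped. Without CTRL 1 the difference was -0.075, and without CTRL 2 it was -0.23.

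Fsip2, a large fibrous sheath protein and the least abundant of the 6 per length, was measured at 272 and 262 CPM (CTRL), 324 and 277 (LPS), 273 and 286 (LPS+DHEA) and 281 and 259.9 (LPS+DHEA+Nb), where LPS 1 was highest. Akap3, the partner of Akap4, ranged from 1186 to 1361 CPM, and Qrich2, which is needed for a stable flagellum, from 1044 to 1141. Summed over the 6 genes, the group means were 95.4%, 96.2% and 98.4% of CTRL in LPS, LPS+DHEA and LPS+DHEA+Nb.

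Tektins are filament proteins inside the doublet microtubules of the tail, and Tekt4 was the most variable member of all 40. It was measured at 308 and 159 CPM (CTRL), 356 and 309.9 (LPS), 309 and 328 (LPS+DHEA) and 330.2 and 310.2 (LPS+DHEA+Nb). CTRL 2 alone was low, and the other 7 libraries lay between 308 and 356 CPM. The log2 fold changes over CTRL were 0.51, 0.45 and 0.45 in LPS, LPS+DHEA and LPS+DHEA+Nb, with SEs of 0.33 and adjusted p of 0.865, 0.965 and 1. That single library set these values: without CTRL 2 they were 0.11, 0.046 and 0.057, and without CTRL 1 they were 1.06, 1.00 and 1.01, with adjusted p of 0.00375, 0.00632 and 0.00525. A neighbouring gene, Cacna1h, chosen after the values were seen, had 18843 to 24049 counts, not scaled for depth. It had 24049 counts in CTRL 2, the library with the most counts in all, and 23367 in LPS 2. The fitted log2 fold change of Cacna1h in LPS over CTRL was -0.013 (SE 0.11).

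The other tektins did not show this pattern. Tekt1, the most abundant per length, was measured at 305 and 313 CPM (CTRL), 337 and 289 (LPS), 276 and 333 (LPS+DHEA) and 331 and 310.3 (LPS+DHEA+Nb). Tekt5, the least abundant, was measured at 173 and 174 CPM (CTRL), 198 and 172 (LPS), 208 and 175 (LPS+DHEA) and 189.6 and 169 (LPS+DHEA+Nb), with LPS+DHEA 1 highest. Tekt2 ranged from 329 to 404 CPM and Tekt3 from 204 to 229.9, and in both CTRL 2 lay inside the range of the other libraries.

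The 8 axoneme genes were low per length and steady. Spag17, a protein of the central apparatus and the most abundant of them per length, was measured at 487 and 447 CPM (CTRL), 468 and 433 (LPS), 449 and 465 (LPS+DHEA) and 473 and 454 (LPS+DHEA+Nb). Cfap44, which ties the inner dynein arms to the microtubule doublets, was measured at 97.0 and 101 CPM (CTRL), 106 and 94.8 (LPS), 93.2 and 103 (LPS+DHEA) and 98.2 and 96.5 (LPS+DHEA+Nb). Neither gene separated any of the treated groups from CTRL. Cfap43, the partner of Cfap44, ranged from 286 to 319 CPM, Cfap69 from 315 to 378 and Spag16, also of the central apparatus, from 107 to 127. The dynein heavy chains ranged from 173 to 206 CPM for Dnah1 of the inner arms, from 731 to 943 for Dnah8 and from 424 to 513 for Dnah17, both of the outer arms. For Dnah8 and Dnah17 both LPS+DHEA+Nb libraries were below both LPS libraries, by -0.19 (SE 0.088, adjusted p = 0.773) and -0.16 (SE 0.085, adjusted p = 0.809) on the log2 scale, with no call.

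In the mitochondrial sheath of the midpiece, Smcp was measured at 2366 and 2394 CPM (CTRL), 2412 and 2321 (LPS), 2327 and 2290.1 (LPS+DHEA) and 2345 and 2169 (LPS+DHEA+Nb). Its highest and lowest libraries differed by a ratio of 1.11. Spata19, a mitochondrial protein needed to organise the midpiece, was measured at 288 and 263 CPM (CTRL), 274 and 241 (LPS), 290.4 and 284 (LPS+DHEA) and 309.7 and 280.0 (LPS+DHEA+Nb). LPS 2 was the lowest library for Spata19, and both LPS+DHEA and both LPS+DHEA+Nb libraries were above both LPS libraries. The log2 fold changes over LPS were 0.16 in LPS+DHEA (SE 0.082, adjusted p = 1) and 0.20 in LPS+DHEA+Nb (SE 0.082, adjusted p = 0.729), which share the LPS libraries and did not pass. Without LPS 2 they were 0.058 and 0.10, and without LPS 1 they were 0.25 and 0.29.

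The 3 glycolysis genes of sperm were among the most abundant members, and none was called. Ldhc, the lactate dehydrogenase of germ cells, was measured at 2662 and 2805 CPM (CTRL), 2821 and 2616 (LPS), 2725 and 2756 (LPS+DHEA) and 2772 and 2742 (LPS+DHEA+Nb). Gapdhs, the glyceraldehyde-3-phosphate dehydrogenase bound to the fibrous sheath, was measured at 1945 and 2045 CPM (CTRL), 1862 and 1897 (LPS), 1794 and 1880.0 (LPS+DHEA) and 1851 and 1874 (LPS+DHEA+Nb), with both CTRL libraries above all 6 others. The log2 fold changes of Gapdhs over CTRL were -0.086 in LPS, -0.12 in LPS+DHEA (SE 0.052, adjusted p = 0.853) and -0.099 in LPS+DHEA+Nb, and these share the CTRL libraries. Pgk2, the phosphoglycerate kinase that replaces the X-linked form in germ cells, was measured at 887 and 781 CPM (CTRL), 807 and 760.1 (LPS), 787 and 831 (LPS+DHEA) and 855 and 819 (LPS+DHEA+Nb). For Ldhc the intervals of all 6 differences lay within 0.14 of 0 on the log2 scale.

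Their somatic counterparts were given beside them. Ldha, expressed in most tissues, was measured at 966 and 982 CPM (CTRL), 982 and 959 (LPS), 982 and 978 (LPS+DHEA) and 1007 and 981 (LPS+DHEA+Nb), and Ldhb at 66.6 and 68.0 CPM (CTRL), 69.1 and 66.8 (LPS), 63.2 and 65.6 (LPS+DHEA) and 64.3 and 71.6 (LPS+DHEA+Nb). Pgk1 was far lower than Pgk2, at 14.3 and 14.0 CPM (CTRL), 19.1 and 16.9 (LPS), 15.1 and 14.8 (LPS+DHEA) and 16.5 and 15.1 (LPS+DHEA+Nb). Gapdh was counted at 0.89 and 2.94 CPM (CTRL), 2.19 and 2.19 (LPS), 2.58 and 2.42 (LPS+DHEA) and 1.84 and 1.91 (LPS+DHEA+Nb). This level is uncertain, since near-identical pseudogene copies can draw reads of Gapdh away, which was not tested here. By edgeR, DESeq2 and limma-voom 0 of the 4 passed in any comparison. At an unadjusted p under 0.05 edgeR gave 1, Pgk1 in LPS over CTRL.

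Read across groups, LPS against CTRL asked whether inflammation altered the sperm-building transcripts. By edgeR 0 of the 40 members passed, where 0.295% of all genes tested did, and DESeq2 and limma-voom also called 0. At an unadjusted p under 0.05 there were 3 members, Spem1, Odf2 and Akap4, against 7.11% of all genes. Both LPS libraries were above both CTRL libraries for 4 members (Spaca4, Fsip2, Tekt4 and Sun5), against 18.9% of all genes, and below for 5 (Spata16, Odf2, Akap4, Spem1 and Gapdhs), against 18.1%. The median log2 fold change was 0.034 for acrosome, -0.0080 for tail and -0.086 for glycolysis genes, beside -0.0015 for all genes tested. The tail median changed sign with the scaling of the libraries, between -0.010 and 0.015. Leaving out 1 library moved the acrosome median between -0.071 (without LPS 1) and 0.12 (without LPS 2) and the tail median between -0.046 and 0.025.

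DHEA given after LPS was compared with LPS alone. Here 0 of 40 members passed by edgeR, DESeq2 or limma-voom, where edgeR called 0.0189% of all genes, and 0 had an unadjusted p under 0.05, against 3.51%. Both LPS+DHEA libraries were above both LPS libraries for Spata16 and Spata19 (16.1% of all genes) and below for Qrich2 and Dnah17 (15.7%). The medians were -0.0035 for acrosome, -0.022 for tail and 0.012 for glycolysis genes, beside 0.0032 for all genes. Leaving out 1 library moved the acrosome median between -0.12 (without LPS 2) and 0.089 (without LPS 1) and the tail median between -0.051 and 0.026. Against CTRL, LPS+DHEA likewise gave 0 of 40 by the 3 tools, where edgeR called 0.151% of all genes, with Spem1 and Gapdhs at an unadjusted p under 0.05 (5.72% of all genes). Both LPS+DHEA libraries were above both CTRL libraries for 7 members (18.6% of all genes) and below for 6 (16.6%).

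Adding Nb23-bi to DHEA gave the only called member, Spata6. It was 1 of 40 against LPS, where 0.17% of all genes passed, and 1 of 40 against LPS+DHEA, where 0.0871% passed. At an unadjusted p under 0.05 there were 2 members against LPS, Spata6 and Spata19 (6.56% of all genes), and 1 against LPS+DHEA (4.4%). In the 4-group test Spata6 was again the 1 member, against 0.239% of all genes, with Spem1 beside it at an unadjusted p under 0.05 (5.4%). Against CTRL 0 of 40 passed by edgeR, where 8 of all genes tested (0.0303%) did, and 0 by limma-voom. DESeq2 called 1, Spata6, but it called 74 of all genes there. By edgeR Spata6 and Spem1 had an unadjusted p under 0.05 (4.28% of all genes). Both LPS+DHEA+Nb libraries were above both CTRL libraries for 6 members (16.4% of all genes) and below for 4 (16.5%). Both LPS+DHEA+Nb libraries were above both LPS libraries for 9 members (18.1% of all genes) and below for 3 (18.6%). They were above both LPS+DHEA libraries for 5 members, Spaca7, Odf2, Cfap69, Spata6 and Oaz3 (15.7% of all genes), and below for 0 (17.1%). The median log2 fold changes against LPS were 0.052 for acrosome, 0.031 for tail and 0.020 for glycolysis genes, beside 0.0024 for all genes. The medians against LPS+DHEA were 0.051 for acrosome, 0.021 for tail and 0.020 for glycolysis genes, beside -0.0019 for all genes. Against CTRL the acrosome median was 0.10 and the tail median 0.0090, beside 0.0016 for all genes. Leaving out 1 library changed the sign of 10 of the 12 acrosome and tail medians of the 6 comparisons, all but acrosome in LPS+DHEA+Nb over CTRL and tail in LPS+DHEA over CTRL.

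**Figure D4:**
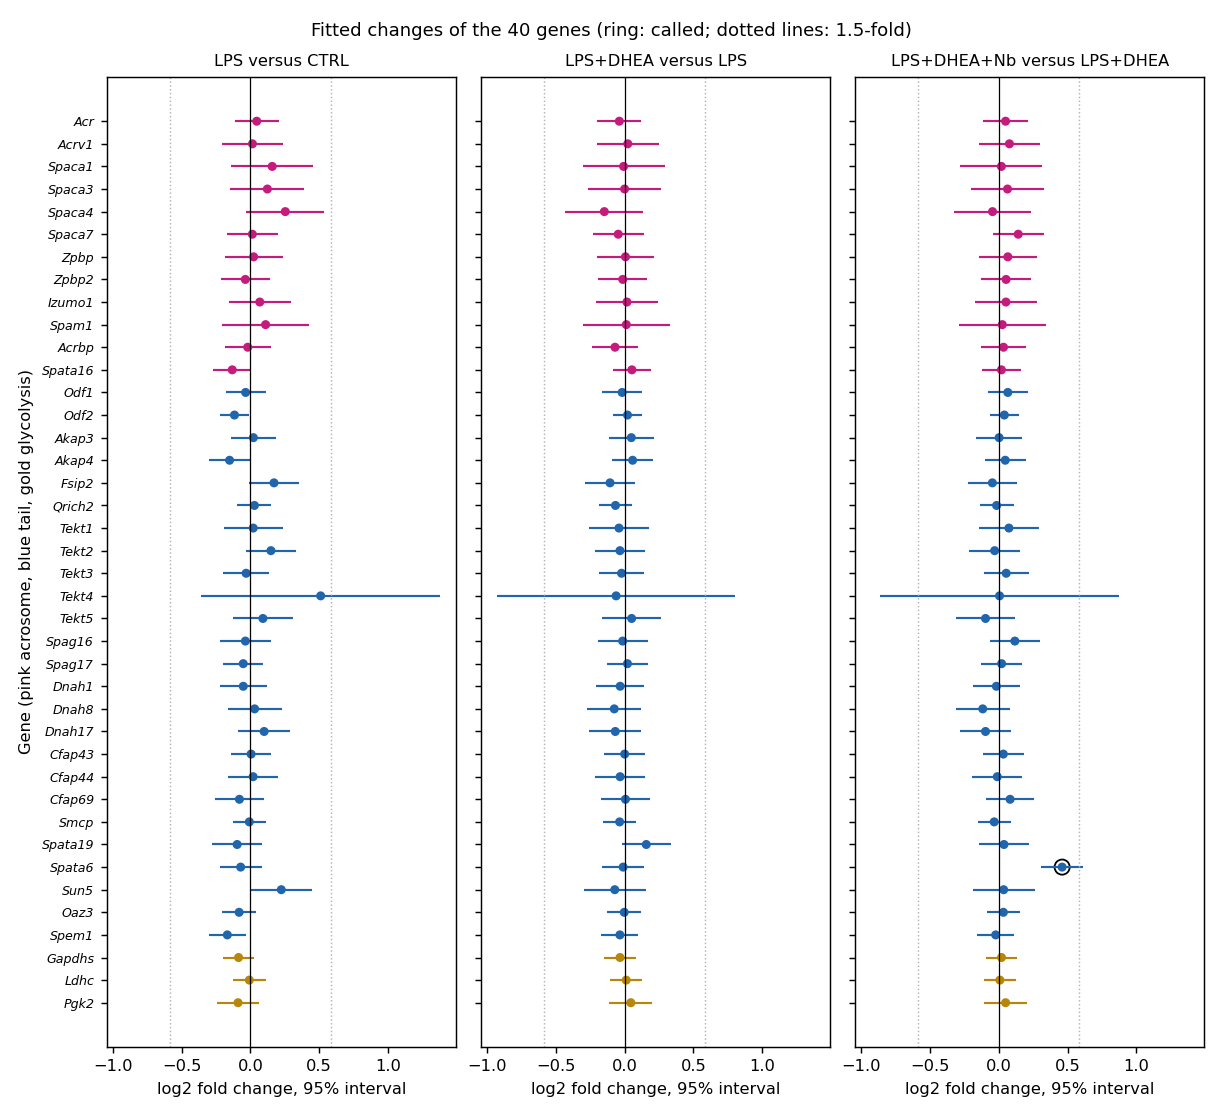
Fitted log2 fold change (dot) and 95% interval (line) of each of the 40 genes in 3 comparisons, in pink for acrosome, blue for tail and gold for glycolysis genes, with dotted lines at 1.5-fold. Spata6, ringed, is called in LPS+DHEA+Nb over LPS+DHEA, and Tekt4 has by far the widest interval in all 3.

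For each gene taken alone, the intervals describe how large a missed difference between these libraries could be. They rest on the spread between libraries of a group, which may be technical, and were not adjusted for the number of genes. In LPS over CTRL and in LPS+DHEA over LPS, 39 of 40 members had a 95% interval within 1.5-fold of no change, all but Tekt4. In LPS+DHEA+Nb over LPS and over LPS+DHEA it was 38 of 40, all but Tekt4 and Spata6. Variation between libraries beyond counting error, taken as edgeR's coefficient of variation, had a median of 0.080 over the members, against 0.201 over all genes tested and 0.085 over the 4251 genes at 50 CPM or more. Acrosome genes had a median of 0.090, tail genes 0.080 and glycolysis genes 0.067.

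Further genes, listed more broadly for the acrosome, the tail and sperm glycolysis, showed no call in any of the 6 comparisons by edgeR, the only tool run on them. The acrosome list also holds Calr3, Clgn, Pdilt, Tex101 and Ly6k, and the glycolysis list Hk1, Tpi1, Slc2a3 and Pdha2. The proteins of these genes are not confined to the acrosome or tail. Of 36 further acrosome genes, 1, 0, 3, 1, 0 and 0 had an unadjusted p under 0.05 in LPS over CTRL, LPS+DHEA over LPS, LPS+DHEA+Nb over LPS, LPS+DHEA+Nb over LPS+DHEA, LPS+DHEA over CTRL and LPS+DHEA+Nb over CTRL. Of 49 further tail genes these counts were 2, 1, 2, 2, 1 and 2, and of 8 further sperm glycolysis genes 0, 0, 0, 1, 0 and 0, while the shares of all genes were 7.11%, 3.51%, 6.56%, 4.4%, 5.72% and 4.28%. The most abundant per length were Actl7b, an actin-like protein of the sperm head, at 619 CPM per kilobase, Ropn1l, a fibrous sheath protein, at 879.8, and Pgam2, a phosphoglycerate mutase, at 982. Their median log2 fold changes of LPS over CTRL were -0.034 for acrosome, -0.043 for tail and -0.040 for glycolysis genes.

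Sums over the lists placed acrosome and tail side by side. The tail sum was 20457 and 19778 CPM (CTRL), 19992 and 19188 (LPS), 19251 and 19786 (LPS+DHEA) and 20186 and 19661 (LPS+DHEA+Nb), so group means were 97.4%, 97.0% and 99.0% of CTRL. The ratio of the acrosome sum to the tail sum lay between 0.106 and 0.114 in all 8 libraries, highest in LPS 1. Messages of the nuclear proteins of elongating spermatids, the transition proteins and protamines (5 genes), summed to 14271 and 15246 CPM (CTRL), 12239.6 and 13241 (LPS), 12418 and 13820.1 (LPS+DHEA) and 13436 and 13997 (LPS+DHEA+Nb). Every library of the LPS groups was thus below both CTRL libraries in that sum. The group means were 86.3%, 88.9% and 92.9% of CTRL in LPS, LPS+DHEA and LPS+DHEA+Nb, while the members stood at 97.5%, 97.2% and 99.2%. The 11 Sertoli cell markers summed to 126%, 124% and 107% of CTRL in LPS, LPS+DHEA and LPS+DHEA+Nb, and the 11 spermatocyte markers to 95.3%, 99.8% and 101%. The Sertoli sum is mostly Clu, at 654 and 642 CPM in CTRL and 869 and 889.8 in LPS, and of the 11 markers 7 had a fold change above 0 in LPS over CTRL and 4 below it (Sox9, Amh, Rhox5 and Inha). No marker of these 3 lists was called, and their part in the levels of the members was not tested.

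**Figure D5:**
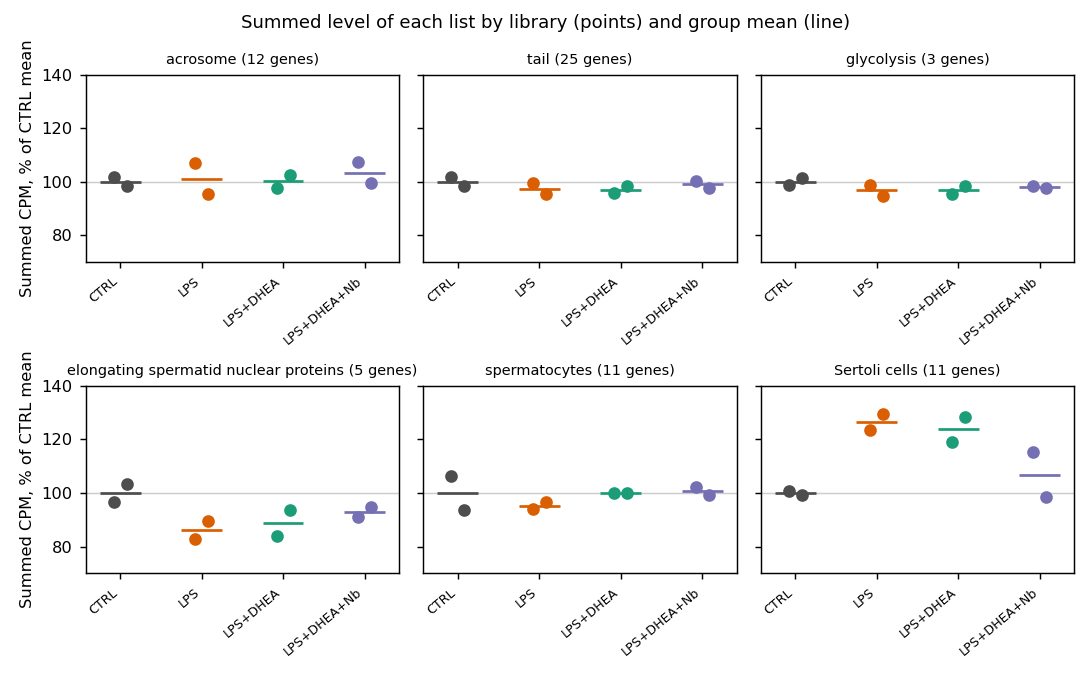
Summed CPM of 6 gene lists by library (points) and group mean (lines), as a percentage of the CTRL mean; the vertical axis runs from 70 to 140. The acrosome, tail and glycolysis sums stay near the CTRL mean in all groups. The spermatid nuclear proteins are lower in LPS (86.3%), LPS+DHEA (88.9%) and LPS+DHEA+Nb (92.9%). The Sertoli cell markers, mostly Clu, are higher in LPS (126%) and LPS+DHEA (124%).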

How the data were processed

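The submitters deposited 1 count file per library, with a value per Ensembl gene. Per the labels' protocols, a KAPA stranded kit was used for library preparation, and per the submitters' processing notes HISAT and featureCounts 1.5.0-p3 were used with GRCm38. The sources used here do not state the strand setting, the handling of shared reads or sequencing batches. The deposited values were taken as estimated counts (expected counts), though plain counts had been planned for: all are whole, but multiples of 4 made up 33.5% of the values from 1 to 40 and 25.1% of those from 1000 to 10000, beside an even share of 25%. The sources used here do not state how the authors made them.

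From these, CPM on TMM-scaled library sizes were computed (scaling factors 0.985 to 1.01), and CPM per kilobase on merged exons of GENCODE M21. Tests were edgeR 4.0.16 quasi-likelihood tests in 1 fit of the 8 libraries and 4 groups (filterByExpr with a minimum count of 10, 4 residual degrees of freedom), with Benjamini-Hochberg adjustment over all 26414 genes tested and a threshold of 0.05. The spread of each gene was moderated with that of all genes. The p-values and intervals thus also rest on degrees of freedom borrowed from other genes, beyond these 4. Alternatives used DESeq2 1.42.0, limma 3.58.1 (voom), other scalings and filters, the values divided by 4, and each library left out. The edgeR fit was tested on 1 simulated data set of this size: every changed gene it called had the right direction, most small changes were missed, and unchanged genes made up more of the calls than the threshold allows for. The depth of 61291062 to 64521795 counts per library left sampling error small beside the spread between libraries, and intervals cover these libraries only.

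Values in every library are given for members called, the most and least abundant of each role, those with the smallest p among acrosome, tail and glycolysis genes in each comparison, Akap4 and the somatic counterparts. Odf2 and Tekt4 were added after their values were seen, as were the neighbouring genes. The members and lists were chosen with earlier results of these data known. Protein sequences were planned and are not used here.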

Additional observations from a re-analysis of the deposited data

How the results depend on the processing

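With other scalings, filters and tools, and with the values divided by 4, the number of members called moved in 2 of the alternatives that keep all libraries. In a fit of the compared groups alone it was 0 in place of 1 for LPS+DHEA+Nb over LPS, where Spata6 was lost, and with DESeq2 it was 1 in place of 0 for LPS+DHEA+Nb over CTRL, again Spata6. Leaving out 1 library at a time gave 0 to 1 members in 5 of the 6 comparisons, 0 throughout in LPS+DHEA over LPS and 0 to 2 in the 4-group test. Spata6 was lost without any 1 of the 6 libraries of the LPS groups in both comparisons with LPS and LPS+DHEA by edgeR, and Tekt4 was gained without CTRL 1. The cause of these moves was not tested beyond the smaller number of libraries. The ratio of the highest to the lowest library in the summed level of the 40 members was 1.06, and 1.04 with library size alone as the scaling. The fitted log2 fold change of Spaca4 in LPS+DHEA over LPS was -0.15 with all libraries, 0.018 without LPS 1 and -0.31 without LPS 2. Leaving out 1 library moved 10 of 20 fold changes of named members by more than 1.5 times, none of them a called one (Akap4, Spaca3, Spaca4, Spata16, Spata19 and Tekt4).

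Over all genes tested, the calls moved by more than 1.5 times under some alternatives: 78 in LPS over CTRL (62 to 291), 5 in LPS+DHEA over LPS (5 to 35), 45 and 23 in LPS+DHEA+Nb over LPS (19 to 207) and over LPS+DHEA (16 to 116), 40 and 8 in LPS+DHEA and LPS+DHEA+Nb over CTRL (27 to 182 and 7 to 74) and 63 in the 4-group test (51 to 371). DESeq2 gave the highest of each.

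Across all genes tested, libraries with the same number did not deviate together (correlations of -0.038 to 0.060), so the numbers were not taken as pairs. The members were not checked apart. The acrosome genes' median deviation from their 8-library means was higher in library 1 than in library 2 in CTRL, LPS and LPS+DHEA+Nb. It was lower in library 1 in LPS+DHEA. With the replicate number as a block the members called were the same in number in all 6 comparisons and in the 4-group test, with Spata6 at an adjusted p of 0.0282 over LPS and 0.0428 over LPS+DHEA, and the calls over all genes were 62, 5, 47, 16, 29, 8 and 51 in the order above with the 4-group test last.

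With 2 libraries a group, 1 library can set a group's mean, as CTRL 2 did for Tekt4. How reads of overlapping genes were counted is not stated, which bears most on Oaz3, Izumo1 and Acrbp.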
